A study of Mus musculus with 24 samples.

Results

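The podocyte marker genes described here were Nphs1, Podxl, Wt1, Synpo, Ptpro, Magi2, Plce1 and Cdkn1c. They were taken by symbol from a fixed list of 8 genes, out of 55335 genes counted in each kidney, and all 8 passed the filter on low values. RNA of whole kidneys was sequenced from 24 mice of the C57BL/6J background. The mice with the deletion carried Pex5lox/lox/Pax8-rtTA/LC1, and their littermate controls carried Pex5lox/lox, with no transgene listed for them. All of them, controls included, received doxycycline (DOX) during 2 weeks when 8 weeks old, and their kidneys were collected after a further 4 weeks without DOX. There were 6 kidneys in each of the groups Ctrlm and cKOm (males) and Ctrlf and cKOf (females). Pax8-rtTA switches on LC1, which holds Cre recombinase, in the renal tubule when DOX is given, so Pex5, the import receptor of peroxisomal matrix proteins, was deleted in tubule cells and podocytes were not the targeted cells.

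Podocytes are the epithelial cells that wrap the capillaries of the glomerulus. Their interlocking foot processes are bridged by the slit diaphragm, a cell junction that holds back plasma proteins during filtration. Nephrin (Nphs1) spans that junction, Magi2 is a scaffold protein under it, and Ptpro is a receptor-type phosphatase of the apical foot process membrane. Podocalyxin (Podxl) is the main sialylated glycoprotein of the podocyte surface, and synaptopodin (Synpo) binds the actin of the foot processes. Plce1 is phospholipase C epsilon, a signalling enzyme, Wt1 is a transcription factor that podocytes keep through adult life, and Cdkn1c (p57) is a cell cycle inhibitor of mature podocytes. Podocytes are a small share of kidney cells, and in whole-kidney RNA fewer podocytes and less RNA per podocyte cannot be told apart. Some of the 8 genes are also used by other kidney cells, Podxl by endothelial cells among them.

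The reads assigned to genes ranged from 19376152 to 28470831 per kidney, and mitochondrial transcripts took 13.6% to 24.1% of them. The smallest count of any of the 8 genes in a kidney was 141, for Magi2. Levels are given as CPM, which are counts scaled to a common library size (TMM). The targeted gene Pex5 fell in males from 54.3 ± 4.63 to 43.7 ± 1.94 CPM (SD, n = 6), that is by a log2 fold change of -0.31 (edgeR quasi-likelihood test, adjusted p = 0.0219). In females its means were 50.3 ± 6.97 (Ctrlf) and 43.6 ± 3.55 CPM (cKOf), with a log2 fold change of -0.21 (edgeR adjusted p = 0.177). These counts cover all exons of Pex5 and all cells of the kidney. The study reported significantly lower Pex5 mRNA in cKO kidneys of both sexes, with some full-length mRNA left in cKOf mice. On its blots PEX5 protein was nearly absent in cKOm and lower but detectable in cKOf mice. Its electron microscopy found almost no peroxisomes in proximal tubules of either. Transcripts of hepatocytes, a cell type that kidneys do not hold, stood apart in some libraries. The summed level of 10 hepatocyte markers ranged from 96.6 to 973 CPM in Ctrlm and from 58.7 to 458 CPM in cKOm mice. Among females it stayed between 47.5 and 117 CPM. The share of reads on no annotated feature was under 7% in 4 kidneys, of which 2 were Ctrlm, 1 was Ctrlf and 1 was cKOf.

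Promoters of 4 of the 8 genes were found in the RefSeq table of GRCm38.p6, and the 250 bases before 2 of these start sites lay outside annotated exons. They are shown for Ptpro, which differed between control males and females, and for an internal start of Magi2, because these are the stretches next to which transcripts of both genes begin. The first spans chr6:137252049-137252298 on the plus strand, just before the first exon of Ptpro. The second spans chr5:19907268-19907517 on the plus strand, inside the Magi2 gene. Capitals mark the letters TAATTA, the core bound by many homeodomain proteins, and CCGCCC, which is the reverse strand of the GC box GGGCGG.
Ptpro: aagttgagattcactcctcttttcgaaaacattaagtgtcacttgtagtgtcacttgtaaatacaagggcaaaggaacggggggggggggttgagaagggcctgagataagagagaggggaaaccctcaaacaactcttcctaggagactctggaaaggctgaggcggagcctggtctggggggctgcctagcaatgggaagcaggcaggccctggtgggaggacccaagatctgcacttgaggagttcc
Magi2: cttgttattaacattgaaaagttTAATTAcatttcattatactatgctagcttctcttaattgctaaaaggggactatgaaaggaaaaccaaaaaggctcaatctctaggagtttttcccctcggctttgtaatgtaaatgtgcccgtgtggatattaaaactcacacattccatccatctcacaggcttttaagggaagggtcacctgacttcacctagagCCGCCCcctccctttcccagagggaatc
Both strands of the 250 bases before each start were searched for 7 short motifs. None of the 7 was found at Ptpro, while this Magi2 start held TAATTA and GGGCGG. Over all 32851 promoters in the table, 4.84% held TAATTA and 32.7% held GGGCGG. Of the other 5 motifs, GCGGGGG was in 9.63% of all promoters, GCGTGGG in 4.3%, CAGCTG in 13%, TGCTGA in 16.1% and TATAAA in 12.4%. At the outer Magi2 start GCGTGGG was found along with CAGCTG, and at the listed starts of Nphs1 and Plce1 none of the 7. The windows of Nphs1 and Plce1 begin at chr7:30459808 and chr19:38523947. Both lie inside the annotated span of their gene and overlap its own exons. The median GC content was 50.8% over the 5 promoters of these 4 genes and 52.4% over all promoters. These matches describe the letters in the windows and not binding.

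Per kilobase of exon, the order of the 8 levels was the same in all 4 groups. In Ctrlm mice Podxl was highest at 53.8 ± 4.73 CPM per kilobase (SD, n = 6) and was followed by Cdkn1c at 8.86 ± 2.08 and Synpo at 5.24 ± 0.356. Nphs1 followed at 3.37 ± 0.275, Ptpro at 2.77 ± 0.595 and Wt1 at 2.47 ± 0.367. Magi2 at 1.12 ± 0.267 and Plce1 at 0.644 ± 0.112 CPM per kilobase were lowest. The ranges of the neighbours Nphs1 and Ptpro, and of Ptpro and Wt1, overlapped in every group. Magi2 and Plce1 overlapped in Ctrlm, Ctrlf and cKOf but not in cKOm mice. Podxl alone gave a mean of 66.7% of the summed CPM of the 8 genes in Ctrlm and 64.4% in Ctrlf mice, so the sum mainly follows Podxl.

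**Figure D1:**
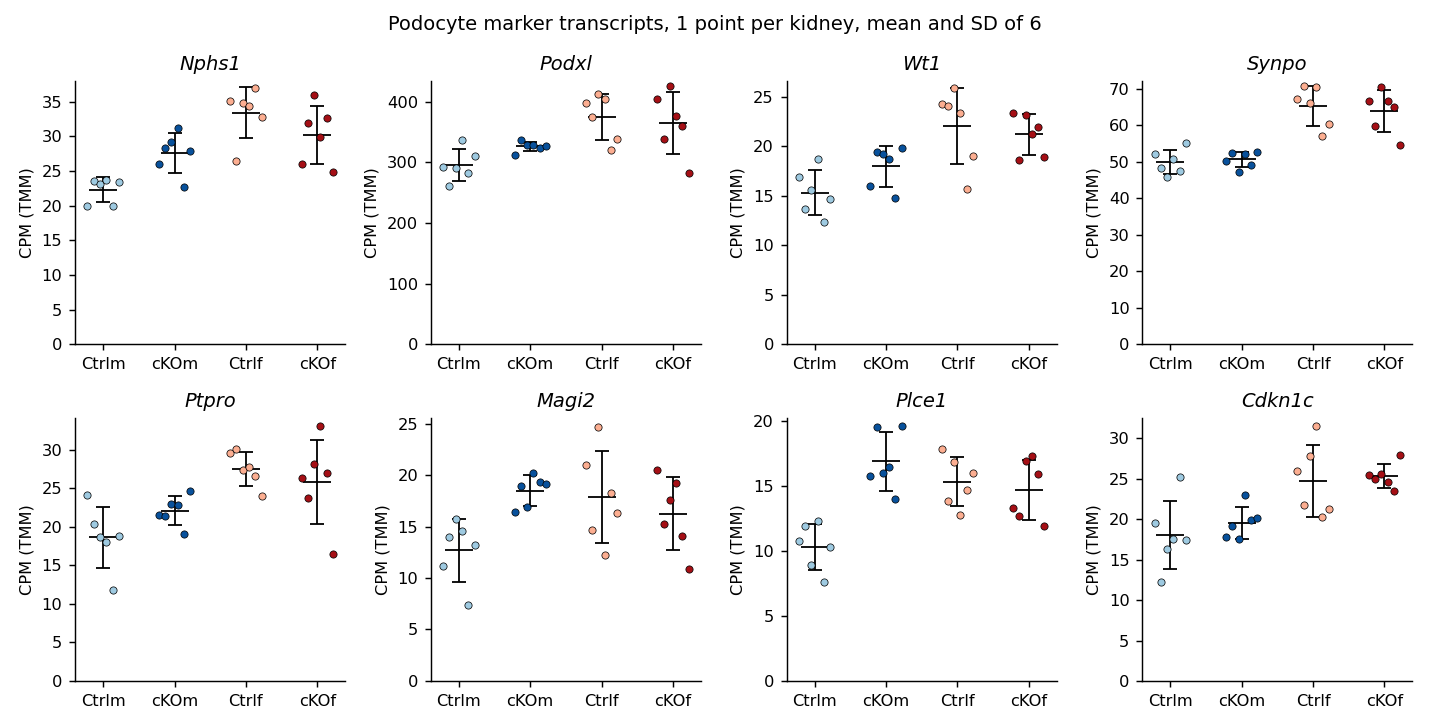
Each panel plots the level of 1 podocyte gene (CPM after TMM scaling, axis from 0) in the groups Ctrlm, cKOm, Ctrlf and cKOf, with 1 point per kidney and the mean and SD of 6 kidneys as a bar. Plce1 in cKOm mice (13.97 to 19.7 CPM) lies above every Ctrlm kidney (7.62 to 12.3 CPM), and the Ctrlm mean is the lowest of the 4 means in all 8 panels.

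Between control males and control females the podocyte genes differed in 1 direction. The fold change was below 0, that is lower in Ctrlm than in Ctrlf kidneys, for 8 of 8 genes, and 7 of them passed the threshold. Of all 16092 genes tested, 7.48% passed as lower and 8.17% as higher in Ctrlm kidneys, 15.7% in all. A fold change above 0 was found for 45.1% of all genes. The median log2 fold change (Ctrlm minus Ctrlf) was -0.51 over the 8 genes and -0.03 over all genes tested. Tubule markers moved in the same direction in the same kidneys. Of 5 thick ascending limb markers 3 passed as lower in Ctrlm mice, and the summed level of that list was 3637 to 4533 CPM in Ctrlm and 4788 to 5913 CPM in Ctrlf mice, with no overlap. Of 9 distal tubule and collecting duct markers 3 passed as lower and 9 had a fold change below 0, and their summed level averaged 1999 ± 376 CPM in Ctrlm and 2709 ± 217 CPM in Ctrlf mice (SD, n = 6). Of 8 proximal tubule markers 2 passed as lower and 1 as higher. The part of these cell types in the podocyte gene differences was not tested.

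Among the slit diaphragm genes, Nphs1 was at 19.9, 23.3 and 23.7 CPM in Ctrlm mice (lowest, median and highest of 6) and at 26.4, 34.5 and 37.0 CPM in Ctrlf mice. Every Ctrlm kidney was below every Ctrlf kidney. The log2 fold change was -0.58 (standard error 0.10, edgeR adjusted p = 9.3e-05). Ptpro ranged from 11.8 to 24.1 CPM in Ctrlm and from 23.96 to 30.05 CPM in Ctrlf mice, and 5 of 6 Ctrlm kidneys lay below the lowest Ctrlf kidney. Its log2 fold change was -0.56 (standard error 0.13, edgeR adjusted p = 0.0048). Magi2 was at 7.36, 13.6 and 15.8 CPM in Ctrlm and at 12.2, 17.3 and 24.7 CPM in Ctrlf mice. These groups overlapped, and Magi2 alone of the 8 missed the threshold, at -0.49 on the log2 scale (standard error 0.17, edgeR adjusted p = 0.054).

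Podxl, the surface glycoprotein, was at 260, 291 and 337 CPM in Ctrlm and at 320, 386 and 412 CPM in Ctrlf mice (lowest, median and highest). In 5 of 6 Ctrlm kidneys it was below the lowest Ctrlf kidney, and the log2 fold change was -0.34 (standard error 0.09, edgeR adjusted p = 0.00664). Synpo, the actin-binding protein, was at 46.0, 49.5 and 55.1 CPM in Ctrlm and at 57.0, 66.7 and 70.7 CPM in Ctrlf mice. The 2 groups did not overlap, and the log2 fold change was -0.39 (standard error 0.07, edgeR adjusted p = 0.000352). Plce1 was at 7.62, 10.6 and 12.3 CPM in Ctrlm and at 12.8, 15.3 and 17.8 CPM in Ctrlf mice. Again the groups did not overlap, and the log2 fold change was -0.57 (standard error 0.13, edgeR adjusted p = 0.00219). Nphs1, Synpo and Plce1 thus had no overlap between groups, with Ctrlm lower, as had 3.4% of all genes tested.

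Of the nuclear proteins, Wt1 ranged from 12.4 to 18.7 CPM in Ctrlm and from 15.7 to 25.9 CPM in Ctrlf mice, and 4 of 6 Ctrlm kidneys lay below the lowest Ctrlf kidney (log2 fold change -0.52, standard error 0.12, edgeR adjusted p = 0.00255). Cdkn1c ranged from 12.3 to 25.2 CPM in Ctrlm and from 20.2 to 31.6 CPM in Ctrlf mice, and 5 of 6 Ctrlm kidneys lay below the lowest Ctrlf kidney (log2 fold change -0.46, standard error 0.13, edgeR adjusted p = 0.0152). The Cdkn1c call rested on Ctrlf replicate 4: without that kidney the log2 fold change was -0.36 and the adjusted p was 0.0615. Hepatocyte markers moved with this comparison, since 10 of 10 passed as higher in Ctrlm than in Ctrlf mice. With a hepatocyte score as a covariate, 5 of the 8 podocyte genes passed. Of all genes, 1550 then passed, 734 of them as lower in Ctrlm mice, against 2519 and 1204 without the covariate. The 2 podocyte genes that no longer passed were Podxl (log2 fold change -0.28, edgeR adjusted p = 0.135) and Cdkn1c (-0.42, adjusted p = 0.119).

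In the mice with the deletion fewer of the genes passed the test of sex, and whether the sex difference itself changed is the interaction given further on, which Plce1 alone passed. Of the 8 genes only Synpo passed the threshold between cKOm and cKOf kidneys, where 9.72% of all genes passed in either direction and 4.92% as lower in males. Synpo was at 47.3, 51.1 and 52.6 CPM in cKOm and at 54.6, 65.8 and 70.5 CPM in cKOf mice (lowest, median and highest). No kidney overlapped between these groups, and the log2 fold change (cKOm minus cKOf) was -0.33 (standard error 0.07, edgeR adjusted p = 0.00178). Cdkn1c did not overlap between the groups either (3.24% of all genes had no overlap with cKOm lower), at 17.6 to 23.02 CPM in cKOm and 23.5 to 28.0 CPM in cKOf mice, but missed the threshold (log2 fold change -0.37, edgeR adjusted p = 0.0518). For Magi2 and Plce1 the fold change was above 0, as for 48.5% of all genes, at 0.19 (95% interval -0.16 to 0.53) and 0.20 (-0.05 to 0.46). The remaining 4 genes had values from -0.24 for Wt1 to -0.13 for Nphs1, none past the threshold. Without the 4 kidneys with under 7% of reads on no feature, 4 of the 8 genes passed as lower in cKOm mice, which were Synpo, Podxl, Ptpro and Cdkn1c. That setting was chosen after seeing the data, and the shares of all genes given above are those with all 24 kidneys.

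**Figure D2:**
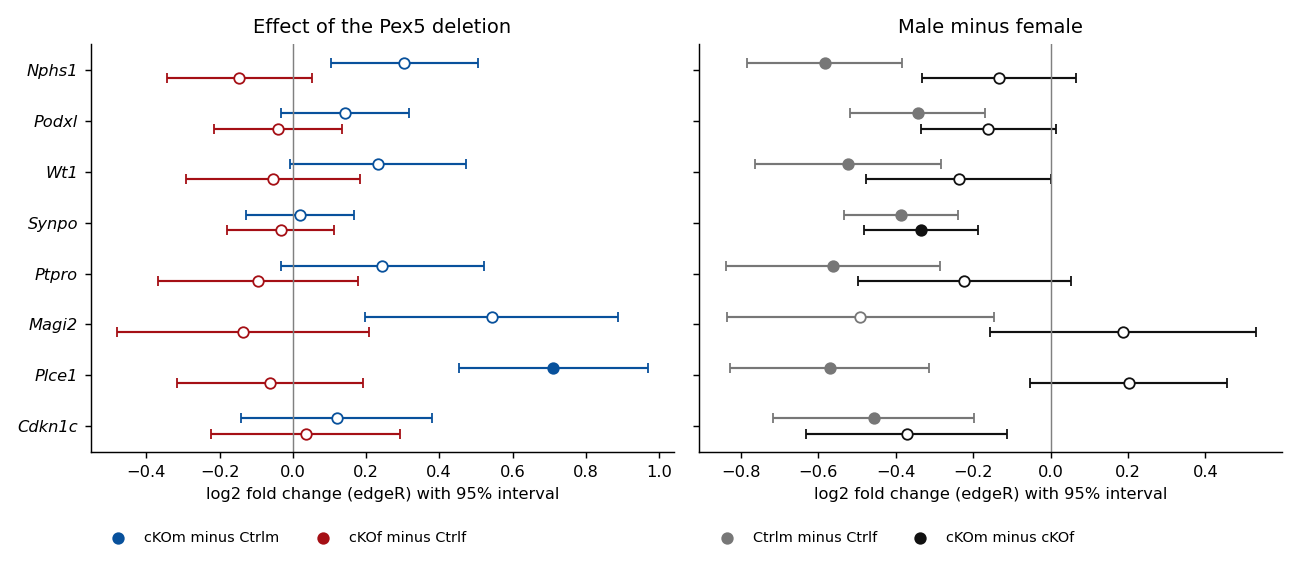
Log2 fold changes (edgeR, 1 row per podocyte gene) with 95% intervals, for cKO minus Ctrl in each sex on the left and for male minus female in Ctrl and cKO mice on the right. Filled points passed the adjusted threshold of 0.05, and these were Plce1 in males on the left, 7 genes in Ctrl mice and Synpo in cKO mice on the right.

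In males, 1 of the 8 podocyte genes rose after the deletion and it was Plce1. Over all genes tested, 4.14% passed as higher in cKOm than in Ctrlm mice and 9.05% passed in either direction, so 1 of 8 is close to the background. The fold change was above 0 for 8 of 8 genes and for 52.2% of all genes tested, with medians of 0.24 and 0.01 on the log2 scale. For Synpo that sign depended on the scaling, since its value of 0.02 became -0.0016 with RLE scaling. This comparison and the one between control males and females use the same Ctrlm kidneys, so that a low Ctrlm level enters both.

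Plce1 was at 7.62, 10.6 and 12.3 CPM in Ctrlm and at 13.97, 16.2 and 19.7 CPM in cKOm mice (lowest, median and highest of 6). All 6 cKOm kidneys were above all 6 Ctrlm kidneys. The mean rose from 10.3 ± 1.79 to 16.9 ± 2.27 CPM (SD, n = 6), a fitted fold of 1.64 or 0.71 on the log2 scale (standard error 0.13, 95% interval 0.45 to 0.97, edgeR adjusted p = 0.000465). In females Plce1 was at 12.8, 15.3 and 17.8 CPM in Ctrlf and at 11.9, 14.6 and 17.3 CPM in cKOf mice, which overlapped. The log2 fold change there was -0.06 (95% interval -0.32 to 0.19, edgeR adjusted p = 0.879). The male change exceeded the female change by 0.77 on the log2 scale (standard error 0.18, 95% interval 0.41 to 1.14, edgeR test of the interaction, adjusted p = 0.0133), a threshold that 2.31% of all genes passed, 0.82% with the male effect higher. The cKOm range overlapped those of both female groups, while every Ctrlm kidney lay below every Ctrlf kidney.

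Magi2, the slit diaphragm scaffold, was at 7.36, 13.6 and 15.8 CPM in Ctrlm and at 16.4, 19.03 and 20.2 CPM in cKOm mice. The groups did not overlap, as for 3.69% of all genes with cKOm higher. The log2 fold change was 0.54 (standard error 0.17, 95% interval 0.20 to 0.89), and it missed the threshold (edgeR adjusted p = 0.0609). In females it was at 12.2, 17.3 and 24.7 CPM in Ctrlf and at 10.9, 16.4 and 20.5 CPM in cKOf mice, with a log2 fold change of -0.14 (95% interval -0.48 to 0.21). The male and female changes differed by 0.68, which did not pass the test of the interaction (edgeR adjusted p = 0.157). Ctrlm replicate 5 held the lowest level of Magi2, and without it the male log2 fold change was 0.43 (adjusted p = 0.14).

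Nphs1 was at 19.9, 23.3 and 23.7 CPM in Ctrlm and at 22.7, 28.1 and 31.1 CPM in cKOm mice. Of the cKOm kidneys, 5 of 6 lay above the highest Ctrlm kidney, with a log2 fold change of 0.30 (95% interval 0.10 to 0.51, edgeR adjusted p = 0.0725). In females it was at 26.4, 34.5 and 37.0 CPM in Ctrlf and at 24.9, 30.9 and 35.9 CPM in cKOf mice, with a log2 fold change of -0.15 (95% interval -0.34 to 0.05). Male minus female effect was 0.45 (95% interval 0.17 to 0.73) and missed the threshold (edgeR interaction test, adjusted p = 0.0876). In these fits Nphs1 thus passed no test of genotype, although a single cKOm kidney fell within the Ctrlm range. It passed in males in 1 of 11 alternatives, which was adjustment within each comparison (edgeR adjusted p = 0.0403). With kidneys left out in turn it passed in 1 of 24 fits in males and in 2 of 24 in the interaction.

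The other 5 genes gave smaller male values. The log2 fold change was 0.14 for Podxl (95% interval -0.03 to 0.32), 0.23 for Wt1 (-0.01 to 0.47) and 0.24 for Ptpro (-0.03 to 0.52). It was 0.12 for Cdkn1c (-0.14 to 0.38) and 0.02 for Synpo (-0.13 to 0.17). Their edgeR adjusted p values ran from 0.341 for Wt1 to 0.943 for Synpo. The Podxl levels were 312 to 336 CPM in cKOm mice, all within the Ctrlm range. In females none of the 8 genes passed between cKOf and Ctrlf mice, where 0.851% of all genes passed, and none had an unadjusted p under 0.05, which 6.73% of all genes had. None passed with limma-voom or DESeq2 either. The female log2 fold changes ran from -0.15 for Nphs1 to 0.03 for Cdkn1c, and 1 of 8 was above 0, as were 50.5% of all genes. In the interaction, 8 of 8 genes and 52.7% of all genes were above 0, the 8 genes had a median of 0.31 on the log2 scale against 0.02 over all genes tested, and only Plce1 passed. The summed level of the 8 genes was 443 ± 32.5 CPM for Ctrlm and 499 ± 16.7 CPM for cKOm mice (SD, n = 6), with ranges that overlapped. The log2 ratio of these sums was 0.18, and with the mean of log2 CPM over the 8 genes, which weights them equally, it was 0.30. For Ctrlf it was 581 ± 52.1 and for cKOf 562 ± 68.5 CPM.

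Plce1 and Magi2 were also set against the other 6 genes within each kidney, a sum that is mainly Podxl. Plce1 counts were 1.91%, 2.44% and 3.14% of the summed counts of the other 6 genes in Ctrlm mice (lowest, median and highest) and 3.11%, 3.50% and 4.16% in cKOm mice. The groups overlapped by 1 kidney on each side. In females the Plce1 share was 2.16% to 3.22% in Ctrlf and 2.33% to 3.13% in cKOf mice. Magi2 counts were 1.84%, 3.07% and 3.85% of the other 6 genes in Ctrlm and 3.64%, 4.01% and 4.30% in cKOm mice, which overlapped. Its female ranges were 2.06% to 4.16% in Ctrlf and 2.56% to 3.59% in cKOf mice.

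A property of the libraries moved with these 2 genes. The share of reads on no annotated feature was 6.48% to 8.30% in Ctrlm and 8.30% to 9.25% in cKOm mice, so that every cKOm kidney was above every Ctrlm kidney, at 8.303% against 8.2957% for the nearest pair. It was 6.65% to 9.12% in Ctrlf and 6.41% to 8.66% in cKOf mice. After subtraction of each group's mean, the correlation of this share with the log2 level over the 24 kidneys was 0.75 for Magi2, 0.51 for Plce1, 0.42 for Ptpro and 0.36 for Nphs1. It was between -0.02 and 0.13 for Wt1, Synpo and Podxl and was -0.58 for Cdkn1c, where other genes had a median of 0.01 and a 90th percentile of 0.60. With the share as a covariate the male log2 fold change was 0.55 for Plce1 (edgeR adjusted p = 0.0136) and 0.18 for Magi2 (adjusted p = 0.623). The Plce1 interaction was then 0.55 and no longer passed (adjusted p = 0.175). The part of this share in the male results was otherwise not tested.

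**Figure D3:**
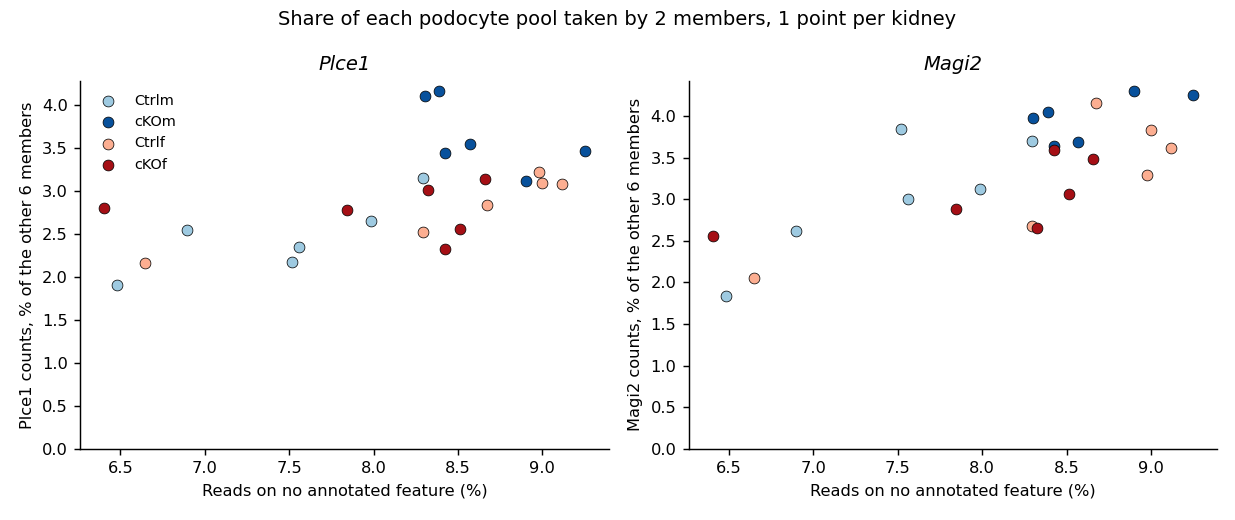
Counts of Plce1 (left) and Magi2 (right) as a percent of the counts of the other 6 podocyte genes, against the percent of reads on no annotated feature, with 1 point per kidney and colours for the 4 groups. The cKOm kidneys lie at the upper right in both panels, at 8.30% to 9.25% on the horizontal axis.

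Exon length moved with the male comparison too. Over all genes tested, the median log2 fold change of cKOm against Ctrlm mice was -0.07 for genes with under 2 kb of exon and 0.13 for the 1386 genes with 10 kb or more, while the female medians were 0.01 and -0.01. Plce1 has the longest exons of the 8 genes at 16 kb, followed by Magi2 at 11.35 kb, and Cdkn1c has the shortest at 2.039 kb. Of the genes with 10 kb or more, 7.14% passed as higher in cKOm mice, against 2.02% of the genes under 2 kb. A log2 fold change at least as high as that of Plce1 was found for 2.60% of the genes with 10 kb or more. It was found for 6.69% of genes under 2 kb, 4.51% at 2 to 4 kb and 3.40% at 4 to 6 kb. These shares take in genes that did not pass the threshold. The part of exon length in the fold changes of Plce1 and Magi2 was not tested. Synpo, with 9.533 kb, had the lowest male log2 fold change of the 8, at 0.02, where the median of all genes with 8 to 10 kb was 0.09.

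**Figure D4:**
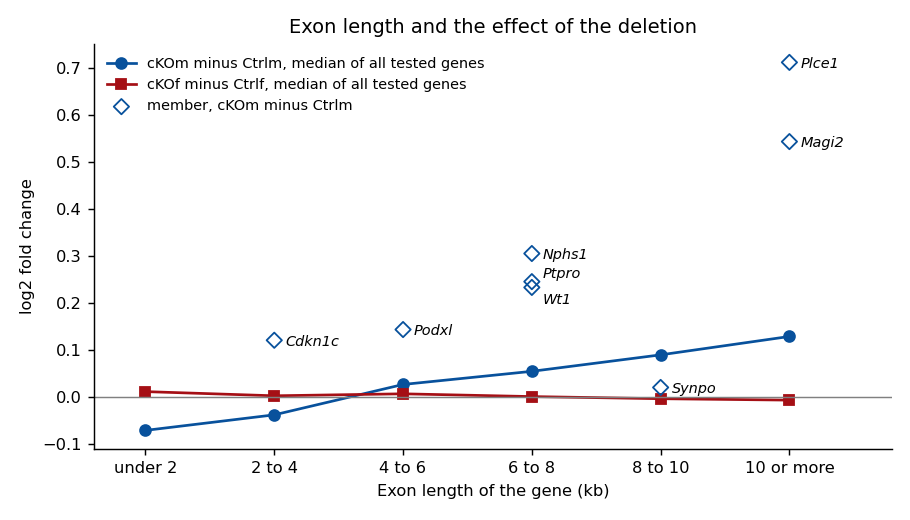
Median log2 fold change of all tested genes in 6 classes of exon length (kb), for cKOm minus Ctrlm (circles) and cKOf minus Ctrlf (squares), with the male values of the 8 podocyte genes as open diamonds. The male medians rise from -0.07 to 0.13 over the classes, the female medians stay near 0, and Plce1 at 0.71 lies above all other diamonds.

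The genes lie on chromosomes 2, 5, 6, 7, 18 and 19 of GRCm38. Plce1 spans chr19:38481109-38785030 on the plus strand, Magi2 chr5:19227036-20704792 on the plus strand and Nphs1 chr7:30458315-30487223 on the plus strand. Counts are summed over the exons of each gene, so isoforms were not told apart. Annotated genes that share exon sequence with a member held few counts. The antisense gene Nphs1os had 0 to 3 counts per kidney and the pseudogene Rps12-ps4 had 4 to 26, against at least 382 for Nphs1. Gm44732, which lies antisense to 30.7% of the exon bases of Cdkn1c, had 0 to 6 counts against at least 331. Gm29254 at the end of Magi2 had 0 to 8.

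Variation among kidneys of the same group was partly shared by the 8 genes. After subtraction of group means, 24 of their 28 pairs had a correlation above 0 over the 24 kidneys, with a median of 0.38. Podxl and Synpo were most alike (r = 0.80), followed by Podxl and Wt1 (0.74), and Magi2 and Cdkn1c were least alike (-0.38). The 4 pairs below 0 all included Cdkn1c. Podxl, Wt1 and Synpo followed the mitochondrial share of the library, with r of 0.55, 0.67 and 0.54, and Nphs1 did not (0.02). It was 0.32 for Ptpro, 0.34 for Plce1, 0.36 for Magi2 and 0.07 for Cdkn1c. The same correlation was not worked out for other genes. All points share library depth and scaling, and these values are descriptions.

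The genes most like the mean of the 8, over 24 kidneys and after subtraction of group means, were Spata13 (r = 0.85), Pard3b (0.83), Srgap1 (0.83), Ptpn21 (0.82) and Heatr5a (0.81). They were followed by Wrn, Hcfc1, Efcab14, Arhgap35 and Hivep1, down to r = 0.80. Over 14064 genes ranked, the median r was 0.03 and the 95th percentile was 0.59. Srgap1, a regulator of the actin cytoskeleton known in podocytes, was the only one of these 10 in the wider podocyte list. Without centring, 0 of the 10 remained, and with any 1 member left out of the mean, 4 to 8 did. For 7 of the single members the nearest genes were Lrba for Podxl (0.83), Smap2 for Wt1 (0.82), Gtf3c1 for Synpo (0.82) and Ppfia1 for Ptpro (0.85). They were Ncoa2 for Magi2 (0.90), 4732440D04Rik for Plce1 (0.82) and Myom2 for Cdkn1c (0.89).

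A wider list of 40 other podocyte genes was written from general knowledge, with earlier results of these data known. Of them 39 were tested, since Kirrel2 did not pass the filter. Between control males and females, 7 of the 39 passed as lower and 1 as higher in Ctrlm mice, and the median log2 fold change was -0.22. Of all genes tested, 7.48% passed as lower and 15.7% in either direction. The 7 were Npnt, Lmx1b, Inf2, Efnb1, Myo1e, Sema3g and Lamb2, named here after their values were seen. Npnt, the matrix protein nephronectin, which is also made by tubule cells, was at 155 ± 38.8 CPM in Ctrlm and 284 ± 41.7 CPM in Ctrlf mice (SD, n = 6; log2 fold change -0.87, edgeR adjusted p = 7.9e-05). Between cKOm and cKOf mice, 5 of the 39 passed as lower in males and none as higher.

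By role, the 9 tested slit diaphragm and junction genes all had a fold change below 0 in Ctrlm against Ctrlf mice, and 1 passed. Of the 11 actin genes 9 were below 0 and 2 passed as lower, and of the 8 basement membrane and adhesion genes 7 were below 0 and 2 passed as lower. Of the 6 transcription factors 5 were below 0 and 1 passed. The 5 secreted and other genes split, with 2 below 0 and 1 passed as lower. Vegfa and Actn4, which many kidney cells use and which with Npnt were among the highest of the list in level per kilobase, did not pass (log2 fold change 0.04 and -0.15).

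In the genotype comparison of males, 1 of the 39 rose and 2 fell, where 9.05% of all genes passed in either direction, and the median log2 fold change was 0.04. Col4a5, a chain of basement membrane collagen IV, rose from 29.7 ± 2.504 to 38.0 ± 4.24 CPM (SD, n = 6; log2 fold change 0.35, edgeR adjusted p = 0.0456). Mapt, the microtubule protein tau, fell from 175 ± 11.7 to 125 ± 5.76 CPM (log2 fold change -0.49, edgeR adjusted p = 7.1e-05). Rhpn1, a protein of the podocyte cytoskeleton, fell from 15.2 ± 2.38 to 10.2 ± 2.15 CPM (log2 fold change -0.58, edgeR adjusted p = 0.0113). Mapt was also the 1 gene of the 39 that passed the interaction, at -0.46 (edgeR adjusted p = 0.0128), opposite in sign to Plce1. Its level was higher in Ctrlm than in Ctrlf mice (log2 fold change 0.43, edgeR adjusted p = 0.000134). In females none of the 39 passed and 0 had an unadjusted edgeR p under 0.05.

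Markers of the other cells of the glomerulus were measured in the same libraries. Of 12 endothelial markers, none passed in the male genotype comparison, 2 had an unadjusted edgeR p under 0.05 and 11 had a fold change below 0 (median -0.14 on the log2 scale). Their summed level was 545 to 677 CPM in Ctrlm and 546 to 619 CPM in cKOm mice. In Ctrlm against Ctrlf mice 2 of the 12 passed as lower, with a median of -0.12. Of 10 tested mesangial, pericyte and renin cell markers, Cspg4, a pericyte proteoglycan, rose in cKOm mice (log2 fold change 0.55, edgeR adjusted p = 0.00105). Agtr1a, the angiotensin II receptor, fell (-0.40, adjusted p = 0.00849). In Ctrlm against Ctrlf mice 3 of these 10 passed as lower, with a median of -0.24. Cldn1, 1 of 3 markers of the parietal cells that line the capsule, fell in cKOm mice (-0.68, edgeR adjusted p = 0.00238).

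Some tubule, liver and immune markers moved with the male comparison as well. Of 8 proximal tubule markers 3 passed as lower in cKOm mice, which were Lrp2, Slc34a1 and Aqp1, and their list summed to 9443 to 10985 CPM in Ctrlm and 8511 to 9493 CPM in cKOm mice. The list as a whole was split, with 4 fold changes above 0 and 4 below, and a median of -0.04 on the log2 scale. Of 5 thick ascending limb markers Slc12a1 passed as higher, and their summed level averaged 4088 ± 331 CPM in Ctrlm and 4666 ± 238 CPM in cKOm mice (SD, n = 6). Of 9 distal tubule and collecting duct markers Slc26a4 passed as higher and Slc4a1 as lower, and their summed level averaged 1999 ± 376 CPM in Ctrlm and 2304 ± 155 CPM in cKOm mice. These 2 sums were higher in cKOm mice, as was the sum of the 8 podocyte genes. The single markers were split. In the thick limb list 3 fold changes were above 0 and 2 below, with a median of 0.12 on the log2 scale. In the distal list 4 were above 0 and 5 below, with a median of -0.17. A single marker of the distal list averaged 1464.5 CPM in Ctrlm and 1804.1 CPM in cKOm mice, so that sum mainly follows it. Of 10 hepatocyte markers 4 passed as lower, and of 6 macrophage markers Csf1r passed as lower. None of 7 interferon-stimulated genes and none of 6 tested markers of fat, adrenal gland and urothelium passed (edgeR, with 1 and 0 at an unadjusted p under 0.05). All 7 interferon-stimulated genes had a male fold change below 0, from -0.69 to -0.26 on the log2 scale, and their mean log2 CPM was 3.54 to 3.91 in Ctrlm and 3.004 to 3.51 in cKOm mice, with no overlap. The interferon-stimulated genes summed to 446 CPM in 1 Ctrlf kidney. The part of these cell types in the podocyte gene results was not tested, apart from the covariate for hepatocyte transcripts, with which 1 podocyte gene passed in males, Plce1.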

How the data were processed

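RNA of 24 whole kidneys, 6 per group, was measured, and groups were taken from the labels. The authors deposited per-gene counts without normalization. Tools named in the submitters' processing notes were cutadapt 1.8, STAR 2.5.3a and HTSeq 0.9.1 with GRCm38. Libraries were stranded, but the counting setting for strand is not given in the sources used here. Lines for uncounted reads were set aside. Names and positions came from the GENCODE M21 annotation, which held 55154 of the 55335 genes. Between 19376152 and 28470831 reads per kidney were on genes.

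Genes that reached 1 CPM in any kidney were tested with edgeR 4.0.16 in R 4.3.3 (TMM, 1 model of the 4 groups, quasi-likelihood tests). Benjamini-Hochberg adjustment was made jointly for the 2 genotype tests, jointly for the 2 tests of sex and separately for the interaction (threshold 0.05). The study's methods used limma on voom values, which is an alternative here. A prior count of 2 was used for log2 CPM in correlations. Intervals are 95%. Kidneys of a group differed by more than sampling noise (chi-square per degree of freedom 9.93 to 100 over 60 pairs).

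Named were all 8 members, genes that overlap them, Pex5, of the other podocyte list the genes that passed a genotype or interaction test and the 4 with the highest level per kilobase, of the other marker lists up to 3 genes each that passed a genotype test, and the genes most like the members. Some genes that meet this rule are left out of the text, although the counts of genes include them. Members and lists were chosen with earlier results of these data known. On simulated data with 15709 genes, the male test recovered 61 of 98 changes of 0.7 on the log2 scale with 3 false calls, and the Ctrlm against Ctrlf test recovered 52 of 105 changes of 0.5 with 12 false calls. Alternatives were RLE scaling, other filters, limma-voom 3.58.1, DESeq2 1.42.0, other adjustments and fits, covariates and kidneys left out. Figures were made with matplotlib 3.10.9. Other experiments of the study were not analysed here.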

Additional observations from a re-analysis of the deposited data

Results flagged for a closer look

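The effect of the deletion on Plce1 differed between the sexes, with a male change that exceeded the female change by 0.77 on the log2 scale (edgeR interaction test, adjusted p = 0.0133). It passed with each of the 24 kidneys left out in turn, at 0.70 to 0.83, and in 8 of 9 alternatives, the exception being the share of reads on no annotated feature as a covariate.

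That share had a single kidney far below the rest in both female groups. In Ctrlf replicate 4 it was 6.65% and in the nearest kidney of the group 8.30%. In cKOf replicate 6 it was 6.41% and in the nearest kidney 7.85%. Of 48 groups of 6 values examined, these 2 were past Dixon's critical value, and chance gives about 1 in 20.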

How the results depend on the processing

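Plce1 passed in males in 11 of 11 alternatives (edgeR, limma or DESeq2 adjusted p 9.7e-06 to 0.0136) and with each of 24 kidneys left out (log2 fold change 0.64 to 0.77). Kidneys with the same number came from different mice and did not vary together (r -0.06 to 0.12 in males, where 2 of 6 correlated best with their own number, and -0.20 to 0.08 in females, 0 of 6). With the number as a replicate block 1 podocyte gene passed in males, 0 in females, 1 in the interaction, 7 in Ctrlm against Ctrlf and 1 in cKOm against cKOf, the same counts as without it, and 1268 genes passed in males. Counts of podocyte genes that passed in males were 2 with DESeq2 and with each sex fitted alone (Plce1 and Magi2), and 3 with adjustment within each comparison (Nphs1 as well). In cKOm against cKOf they were 2 with DESeq2 and with 1 CPM in at least 6 kidneys, and 4 without the 4 kidneys with under 7% of reads on no feature, a setting chosen after seeing the data. In the interaction the count was 0 with that share as a covariate, also chosen after seeing the data. With kidneys left out in turn the counts of podocyte genes were 1 to 3 in males, 1 to 2 in the interaction, 1 to 2 in cKOm against cKOf, 7 to 8 in Ctrlm against Ctrlf and 0 in females. Counts over all genes were 574 (DESeq2), 239 (hepatocyte covariate) and 183 (no-feature covariate) for the interaction, 43 in females with adjustment within each comparison, and, with the hepatocyte covariate, 785 in males and 1550 in Ctrlm against Ctrlf. The cause was not tested.

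Changes near 0 turned direction. Synpo in males was -0.0016 with RLE scaling, -0.0069 with every gene with a count, -0.0025 with 1 CPM in at least 6 kidneys, -0.0013 with DESeq2, -0.0071 with the hepatocyte covariate, -0.0017 with each sex alone, -0.0063 without the 4 kidneys and -0.0046 to 0.039 with kidneys left out. With the no-feature covariate the female values were 0.0032 for Magi2, 0.0033 for Plce1 and -0.031 for Cdkn1c. Without the 4 kidneys they were 0.037 for Podxl and 0.023 for Synpo, whose interaction was -0.029. With kidneys left out the female ranges were -0.015 to 0.11 for Cdkn1c, -0.089 to 0.023 for Podxl, -0.069 to 0.0080 for Synpo and -0.18 to 0.0047 for Ptpro, and the interaction of Cdkn1c was -0.014 to 0.20.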
